A study of Mus musculus with 24 samples.

Results

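The genes described are 10 genes of MHC class II antigen presentation, measured by RNA sequencing in 24 D4M tumours. They were chosen by symbol from the deposited table of gene counts, not by any measured value: H2-Aa, H2-Ab1 and H2-Eb1 (chains of the peptide-binding molecules), Cd74 (the invariant chain), H2-DMa, H2-DMb1 and H2-DMb2 (peptide exchange), H2-Oa and H2-Ob (the inhibitor of that exchange) and Ciita (the transactivator). All 10 were found among the 55414 genes of the table, and all 10 passed the filter on low counts, as did 16029 genes in all. D4M is a mouse melanoma line, here grown in C57BL/6 wild-type mice. Tumours of 4 groups, 6 in each, were compared: BRQ+PD-1 (brequinar with an antibody to PD-1), BRQ+IgG2a (brequinar with the control antibody), PD-1 (the antibody to PD-1 alone) and IgG2a (the control antibody alone, given by intraperitoneal injection as the PD-1 antibody was). Brequinar inhibits DHODH, an enzyme of pyrimidine synthesis, and PD-1 is a receptor that restrains T cells. All tumours thus share the line, the host strain and an injected antibody; no source used here gives doses, duration of treatment or the age of the mice.

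MHC class II molecules present peptides from endosomes to CD4 T cells. They are made of an alpha and a beta chain (H2-Aa with H2-Ab1 for I-A, an E alpha chain with H2-Eb1 for I-E). The invariant chain blocks the groove until endosomal proteases trim it, H2-DM then exchanges its remnant for other peptides, and H2-DO restrains H2-DM, mainly in B cells and some dendritic cells. Ciita does not bind DNA itself: it is recruited by the RFX complex, CREB and NF-Y, which sit on the X1, X2 and Y boxes of these promoters. Dendritic cells, macrophages and B cells express the genes constitutively, and interferon gamma can induce Ciita in many other cells.

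These boxes are shown for 6 of the genes, because the genes listed share an activator. Whether the boxes bear on how the values below move was not tested. Promoter sequences from RefSeq (build GRCm38.p6) matched 7 of the 10 genes, with 8 windows, since H2-DMa has 2 starts. Each line gives the stretch just before the annotated start, read 5′ to 3′ on the strand of the gene. Capitals mark an X1 core (AACNGATG), a full X2 site (TGACGTCA) or a Y box (ATTGG, or CCAAT where it lies on the other strand).
H2-Eb1, chr17:34305742-34305866, plus strand: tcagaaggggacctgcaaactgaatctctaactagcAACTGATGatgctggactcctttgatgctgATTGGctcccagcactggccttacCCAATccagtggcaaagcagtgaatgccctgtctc
H2-DMb1, chr17:34153066-34153190, plus strand: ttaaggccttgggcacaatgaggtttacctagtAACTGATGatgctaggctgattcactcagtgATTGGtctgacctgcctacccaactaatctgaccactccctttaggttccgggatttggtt
H2-DMb2, chr17:34145124-34145248, plus strand: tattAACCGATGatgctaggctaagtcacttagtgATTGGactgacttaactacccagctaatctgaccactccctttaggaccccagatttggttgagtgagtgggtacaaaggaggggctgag
H2-Aa, chr17:34287824-34287948, minus strand: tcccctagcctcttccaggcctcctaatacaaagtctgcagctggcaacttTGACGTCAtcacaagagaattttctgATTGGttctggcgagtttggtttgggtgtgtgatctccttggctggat
H2-Ob, chr17:34238780-34238904, plus strand: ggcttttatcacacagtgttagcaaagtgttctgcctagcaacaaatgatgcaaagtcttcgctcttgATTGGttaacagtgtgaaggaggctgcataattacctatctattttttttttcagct
H2-Oa, chr17:34092254-34092378, plus strand: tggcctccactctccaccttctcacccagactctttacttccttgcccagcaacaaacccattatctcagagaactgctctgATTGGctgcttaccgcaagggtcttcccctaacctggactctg
H2-Ab1, Cd74 and Ciita are named only. Both strands of the 300-base RefSeq promoters (250 bases before to 50 after the start) were searched, and the 3 motifs do not overlap in the lines above. The Y box was present in all 7 genes, a common word found in 37.4% of 32851 promoters, and in H2-DMa it lay only in the window of the downstream start. The X1 core was present in H2-Eb1, H2-DMb1 and H2-DMb2, against 2.32% of all promoters, and the full X2 site in H2-Aa, against 1.79%. An X1 core followed on the same strand by a Y box at 10 to 30 bases was found in 7 of the 32851 promoters (0.0213%). They are those of H2-Eb1 (22 bases between), H2-Eb2 (22), H2-DMb1 (23), H2-DMb2 (23), BC051142 (23), H2-M10.4 (12) and Gm35697 (27). These are matches of letters and were not measured as binding sites. Only exact matches were counted, so a box that differs by a letter was missed. A gene without a match may still have the box.

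Libraries held 19106205 to 34282319 counts, so 1 CPM (a count scaled to the library total) rests on 19.1 to 34.3 counts. Skeletal muscle RNA set 4 libraries apart: IgG2a replicates 2 and 3, PD-1 replicate 6 and BRQ+IgG2a replicate 4 held at least 4171 CPM of Acta1 (skeletal muscle actin), against at most 439 CPM in the other 20. The pigment genes Dct, Tyr and Tyrp1 had at most 3 counts in every library, so these 3 of 7 melanocytic markers are absent or nearly so from the labelled melanoma tissue. Mlana was at 0 in 19 of the 24 libraries and Sox10 in 9, while Pmel was at 0.0776 to 1.51 CPM and Mitf, a melanocyte regulator, at 11.6 to 48.2 CPM. Without a stated strand setting, reads of a gene and of an overlapping antisense gene cannot be told apart. In an annotation of an older mouse build, 27.2% of the 50-base stretches of the H2-DMb1 transcript and 31.3% of those of H2-DMb2 occur in another gene, for the most part in each other, so their separate values are uncertain; the other 8 genes shared none.

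The 10 genes differed widely in level. Per kilobase of transcript (CPM divided by the length of 1 annotated transcript), Cd74 was highest, at 1277 ± 524 in BRQ+PD-1, 1607 ± 985 in BRQ+IgG2a, 855 ± 248 in PD-1 and 355 ± 194 in IgG2a tumours (SD, n = 6 each). H2-Ab1 stood at 490 ± 246 in BRQ+PD-1, 623 ± 412 in BRQ+IgG2a, 354 ± 113 in PD-1 and 152 ± 95.8 in IgG2a tumours on the same scale, and H2-Aa and H2-Eb1 were of its order. Over the 24 tumours the RNA of the invariant chain was therefore in excess of that of the H2-Ab1 beta chain alone. Cd74 was at 2.16 to 3.18 times H2-Ab1 per length, with a median of 2.52. H2-Eb1, another beta chain, was at a median of 0.649 of H2-Ab1, and protein was not measured. The exchange chains were about an order lower, H2-DMa at a median of 0.105 and H2-DMb1 at 0.142 of H2-Ab1. H2-DMb2 was at a median of 0.0911 of H2-DMb1, Ciita at 0.0125 of H2-Ab1, and H2-Ob at 0.00212 of H2-Ab1. In the means of all 4 groups the order was Cd74, then H2-Aa and H2-Ab1, then H2-Eb1, H2-DMb1 and H2-DMa, then H2-DMb2 and Ciita, with H2-Oa and H2-Ob last. H2-Aa and H2-Ab1 did not differ beyond the SD of either in any group, nor did H2-Oa and H2-Ob, and Ciita stood above H2-DMb2 in both brequinar groups and below it in PD-1 and IgG2a tumours.

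**Figure D1:**
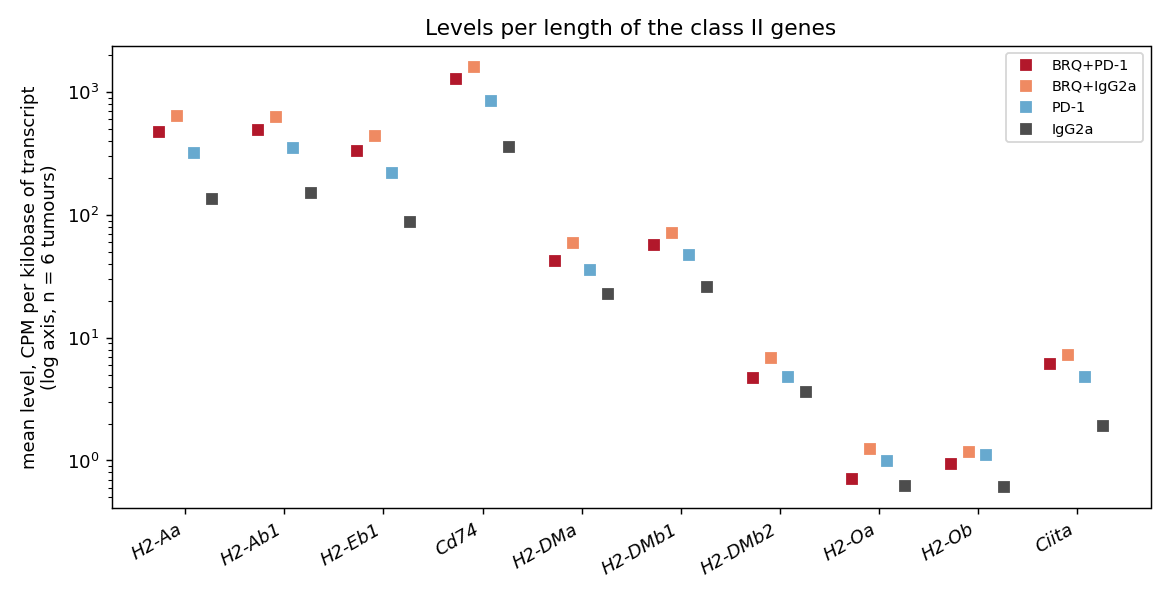
Mean level of each gene in CPM per kilobase of transcript (log axis) in the 4 groups, 6 tumours each, with 1 square per group. Cd74 is highest and H2-Oa and H2-Ob lowest in every group, and the BRQ+IgG2a square is the highest and the IgG2a square the lowest for each gene.

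Other class II chain genes were at or near 0. H2-Ea, the E alpha gene, which C57BL/6 mice carry in a nonfunctional form, had 0 counts in all 24 libraries, which allows at most 0.0875 to 0.157 CPM per library (3 counts, counting error only). H2-Eb2, a second E beta gene, had 1 to 41 counts per library. H2-Eb1 was thus abundant as RNA with no counted partner chain.

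In BRQ+PD-1 against IgG2a tumours, 6 of the 10 genes rose: H2-Aa, H2-Ab1, H2-Eb1, Cd74, H2-DMb1 and Ciita. Across all genes tested, 2.48% rose in this comparison (edgeR quasi-likelihood test with Benjamini-Hochberg adjustment, adjusted p under 0.05), and no member fell, against 1.43% of all genes. The median log2 fold change of the 10 was 1.40, with a range of 0.21 to 1.91, against a median of 0.01 over all genes. H2-DMa, H2-DMb2, H2-Oa and H2-Ob did not pass. The count depended on the fit: with all libraries kept it was 1 of 10 with the replicate number as a block and 1 of 10 with no expression filter. It was also 1 of 10 without IgG2a replicate 1, 3 or 4 or without BRQ+PD-1 replicate 3, and 3 of 10 without IgG2a replicate 5. Calls over all genes fell in these fits as well. From 398 of 16029 genes higher in the reported fit, they went to 216 of 16029 with the block and 202 of 32949 with no expression filter. Without these 5 libraries in turn, 193 to 275 genes were higher. Cd74 was the member called in all 12 fits that left out a library.

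In BRQ+IgG2a against IgG2a tumours, 7 of the 10 rose: H2-Aa, H2-Ab1, H2-Eb1, Cd74, H2-DMa, H2-DMb1 and Ciita. In all, 2.96% of genes rose in this comparison; none fell, against 0.493% of all genes. The median log2 fold change was 1.66, with a range of 0.89 to 2.30, against -0.01 over all genes. The count was 5 to 7 when any library was left out, and H2-DMa held in 3 of those 12 fits. With only these 2 groups in the fit, Cd74 alone passed, where 291 of 15159 genes rose, against 475 of 16029 in the reported fit.

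In PD-1 against IgG2a tumours no member passed the edgeR test, in a comparison where 0.0187% of all genes rose. The log2 fold changes of the 10 ran from 0.39 to 1.30, with a median of 1.04 against 0.00 over all genes; 6 of the 10 had an unadjusted p under 0.05, and adjusted p-values ran from 0.421 to 0.908. DESeq2 called 0 members and limma voom with quality weights called 1, Cd74. Over all 16029 genes, DESeq2 called 19 higher and 8 lower here, and limma voom called 8 higher and 1 lower. The 3 comparisons share the IgG2a tumours.

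**Figure D2:**
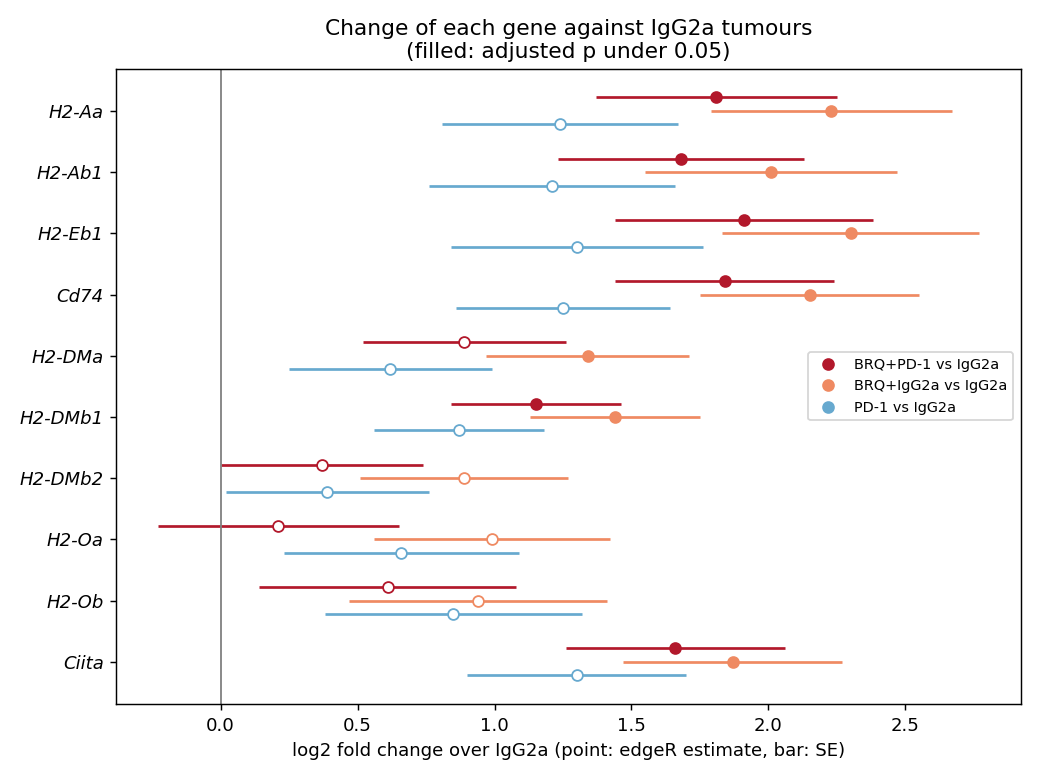
Log2 fold change of each gene over IgG2a tumours (points, with SE as bars) for BRQ+PD-1, BRQ+IgG2a and PD-1 tumours; filled points passed an adjusted p under 0.05. The estimates of H2-Aa, H2-Ab1, H2-Eb1 and Cd74 lie between 1.21 and 2.30, and those of H2-DMb2 between 0.37 and 0.89.

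Adding brequinar to the PD-1 antibody, or the PD-1 antibody to brequinar, changed no member by the test. In BRQ+PD-1 against PD-1 tumours 0 of 10 passed edgeR, DESeq2 or limma voom, with none at an unadjusted edgeR p under 0.05. By edgeR 2.38% of all genes rose and 2.66% fell. Of 16029 genes, DESeq2 called 636 higher and 770 lower, and limma voom called 1057 higher and 1137 lower. The members' edgeR log2 fold changes ran from -0.45 for H2-Oa to 0.62 for H2-Eb1, with a median of 0.32 against 0.01 over all genes. In BRQ+PD-1 against BRQ+IgG2a tumours 0 of 10 passed any of the 3 tools, again with none at an unadjusted edgeR p under 0.05. By edgeR 0.0% of all genes were called either way. Of 16029 genes, DESeq2 called 3 higher and 1 lower, and limma voom called 446 higher and 174 lower. Here all 10 edgeR estimates of the members were below 0, from -0.79 for H2-Oa to -0.21 for Ciita.

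Averaged over both antibodies, brequinar tumours (BRQ+PD-1 and BRQ+IgG2a) had 7 of the 10 genes higher than tumours without it (PD-1 and IgG2a), where 6.91% of all genes were higher and 5.57% lower. Cd74 rose by 1.37 ± 0.28 (SE) on the log2 scale with an edgeR adjusted p of 0.00308, and H2-Eb1 by 1.46 ± 0.33 with an adjusted p of 0.00586. In all 24 fits that left out a library 6 of the 7 passed, and H2-DMa (0.81 ± 0.26, adjusted p 0.0448) in 6 of them. H2-DMb2, H2-Oa and H2-Ob had log2 fold changes of 0.44, 0.27 and 0.35 and did not pass in this fit. H2-DMb2 and H2-Ob passed under an alternative setting. Calls over all genes varied with the setting as well. Limma voom called 2034 of 16029 genes higher here and DESeq2 1387, against 1108 in the reported fit.

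Whether brequinar acted differently with the PD-1 antibody than with the control antibody was tested as an interaction. For H2-Aa the brequinar difference was 0.57 ± 0.43 on the log2 scale with the PD-1 antibody (BRQ+PD-1 against PD-1) and 2.23 ± 0.44 with the control antibody (BRQ+IgG2a against IgG2a). The difference between these differences, -1.66 ± 0.61, had an unadjusted p of 0.012 and an edgeR adjusted p of 0.559. All 10 interaction estimates were below 0, from -1.69 to -0.90, and 7 had an unadjusted p under 0.05. None passed edgeR or DESeq2 adjustment. By edgeR 0.0% of all genes passed, and DESeq2 called 8 above 0 and 3 below 0 of 16029. By limma voom 5 were called (H2-Aa, H2-Eb1, Cd74, H2-DMb1 and Ciita, adjusted p 0.0405 to 0.0496). That tool called 144 genes above 0 and 128 below 0 of 16029 in the interaction.

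The 3 chain genes of I-A and I-E rose in both brequinar groups against IgG2a. H2-Ab1, the I-A beta chain, had 250, 387, 470, 544, 921 and 991 CPM in BRQ+PD-1 tumours and 121, 410, 612, 718, 1209 and 1459 CPM in BRQ+IgG2a tumours. It had 266, 296, 401, 476, 507 and 628 CPM in PD-1 tumours, against 107, 114, 140, 144, 186 and 414 CPM in IgG2a tumours. Each treated group overlapped IgG2a: the IgG2a tumour at 414 CPM lay within all 3, and 1 BRQ+IgG2a tumour, at 121 CPM, lay among the lower IgG2a tumours. H2-Ab1 rose 3.21-fold in BRQ+PD-1 tumours (log2 1.68 ± 0.45 SE, edgeR adjusted p 0.0403) and 4.02-fold in BRQ+IgG2a tumours (2.01 ± 0.46, adjusted p 0.0148), with 1.21 ± 0.45 and an adjusted p of 0.56 in PD-1 tumours, each against IgG2a.

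H2-Aa, its alpha partner, had 281, 434 and 843 CPM (lowest, median and highest) in BRQ+PD-1 tumours and 111, 651 and 1419 CPM in BRQ+IgG2a tumours. It had 236, 367 and 511 CPM in PD-1 tumours, against 84.3, 120 and 337 CPM in IgG2a tumours. The pattern of overlap was that of H2-Ab1. H2-Aa rose by 1.81 ± 0.44 in BRQ+PD-1 tumours (edgeR adjusted p 0.0252) and by 2.23 ± 0.44 in BRQ+IgG2a tumours (adjusted p 0.00581) on the log2 scale. H2-Eb1, the I-E beta chain, had the highest estimates of the 10, level with Ciita in PD-1 tumours: 1.91 ± 0.47 in BRQ+PD-1 (adjusted p 0.0256), 2.30 ± 0.47 in BRQ+IgG2a (adjusted p 0.00774) and 1.30 ± 0.46 in PD-1 tumours (adjusted p 0.523), with medians of 464, 671 and 382 CPM against 117 CPM in IgG2a tumours.

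Cd74, the invariant chain, was the most abundant of the genes. It had 914, 1420, 1432, 1635, 2690 and 2717 CPM in BRQ+PD-1 tumours, and 430, 1302, 1960, 2147, 3737 and 4019 CPM in BRQ+IgG2a tumours. It had 809, 833, 1125, 1332, 1446 and 1688 CPM in PD-1 tumours, against 290, 354, 408, 410, 503 and 1039 CPM in IgG2a tumours. All but 1 IgG2a tumour lay below every BRQ+PD-1 and every PD-1 tumour, and 1 BRQ+IgG2a tumour again lay among the IgG2a tumours. Cd74 rose 3.58-fold in BRQ+PD-1 tumours (log2 1.84 ± 0.40, edgeR adjusted p 0.0133) and 4.44-fold in BRQ+IgG2a tumours (2.15 ± 0.40, adjusted p 0.00385), the lowest adjusted p-values of the 10 genes in both. In PD-1 tumours it stood 2.38-fold higher than in IgG2a, with an adjusted p of 0.467.

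**Figure D3:**
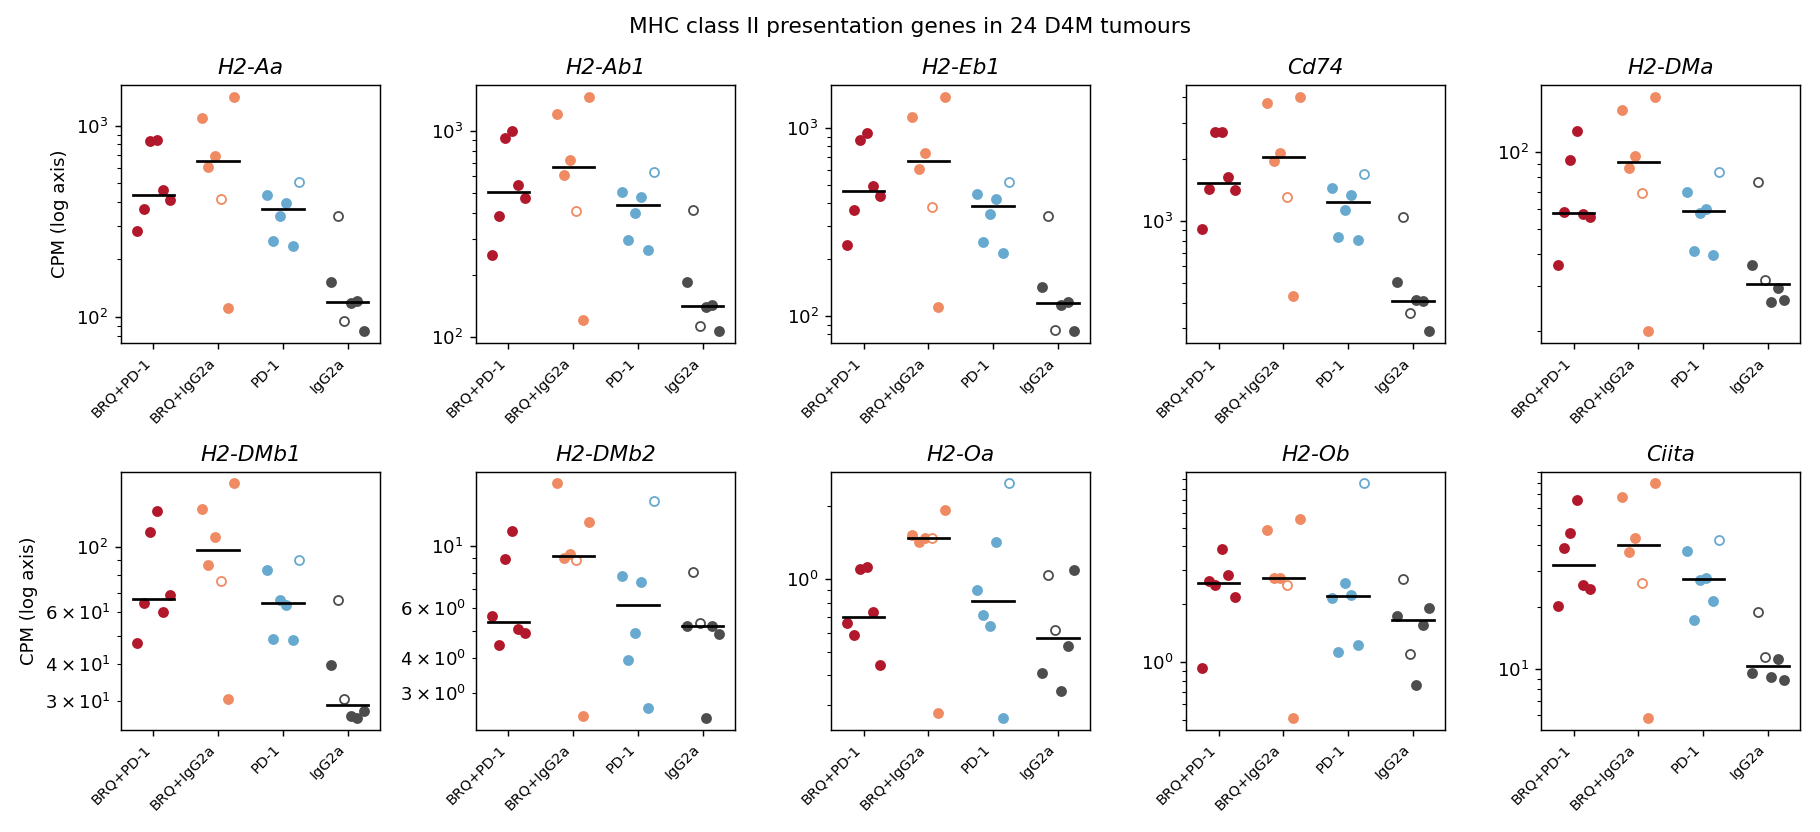
CPM (log axis) of each gene in each tumour, by group, with the group median as a black line; open circles are the 4 libraries rich in muscle RNA. For Cd74 the medians are 1533 in BRQ+PD-1, 2053 in BRQ+IgG2a, 1229 in PD-1 and 409 CPM in IgG2a tumours, and the same BRQ+IgG2a tumour is the lowest of its group in every panel.

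The peptide exchange genes moved less. H2-DMa, the alpha chain of H2-DM, had 36.2, 57.7 and 121 CPM (lowest, median and highest) in BRQ+PD-1 tumours, 19.9, 91.7 and 165 CPM in BRQ+IgG2a tumours and 39.6, 59.0 and 83.6 CPM in PD-1 tumours, against 25.9, 30.6 and 76.5 CPM in IgG2a tumours. It rose in BRQ+IgG2a tumours (log2 1.34 ± 0.37, edgeR adjusted p 0.0467), with 0.89 ± 0.37 and an adjusted p of 0.149 in BRQ+PD-1 tumours. H2-DMb1, the main beta chain, rose by 1.15 ± 0.31 in BRQ+PD-1 (adjusted p 0.0408) and by 1.44 ± 0.31 in BRQ+IgG2a tumours (adjusted p 0.011). H2-DMb2, the second beta gene, did not pass in any of the 3 comparisons with IgG2a in the reported fit. Its log2 fold changes were 0.37 ± 0.37 in BRQ+PD-1, 0.89 ± 0.38 in BRQ+IgG2a and 0.39 ± 0.37 in PD-1 tumours. Its medians were 5.35, 9.18 and 6.15 CPM in that order, against 5.20 CPM in IgG2a tumours. Under an alternative setting it passed in BRQ+IgG2a tumours. Over all 16029 genes, limma voom called 1347 higher in that comparison and DESeq2 700, against 475 in the reported fit.

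The genes of H2-DO, the inhibitor of H2-DM, were scarce, and neither passed in any comparison of the reported edgeR fit. Under an alternative setting each passed in BRQ+IgG2a against IgG2a tumours, a comparison where limma voom and DESeq2 called more of all genes than edgeR (1347 and 700 higher, against 475). H2-Ob, its beta chain, had medians of 2.58 CPM in BRQ+PD-1, 2.73 in BRQ+IgG2a and 2.2 in PD-1 tumours, against 1.64 CPM in IgG2a tumours. Its highest value, 8.51 CPM, was in PD-1 replicate 6. H2-Oa, its alpha chain, had 6 to 64 counts per library; its median was 0.696 CPM in BRQ+PD-1, 1.48 in BRQ+IgG2a and 0.808 in PD-1 tumours, against 0.572 CPM in IgG2a tumours. At such counts its log2 fold change of 0.99 ± 0.43 in BRQ+IgG2a against IgG2a tumours had an unadjusted p of 0.0311 and an edgeR adjusted p of 0.269. PD-1 replicate 6 also held the highest summed level of 8 B cell markers, 67.1 CPM against a median of 8.22 CPM in PD-1 tumours, and it is 1 of the 4 muscle-rich libraries. Their part in its H2-Ob value was not tested.

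Ciita, the transactivator, had 20.3, 24.3, 25.5, 38.6, 45.7 and 65.5 CPM in BRQ+PD-1 tumours and 5.80, 26.1, 36.7, 42.9, 67.7 and 79.2 CPM in BRQ+IgG2a tumours. It had 17.3, 21.4, 26.9, 27.6, 37.2 and 42.0 CPM in PD-1 tumours, against 8.85, 9.16, 9.53, 11.2, 11.4 and 18.8 CPM in IgG2a tumours. BRQ+PD-1 and IgG2a tumours did not overlap, which held for Ciita alone of the 10, where every BRQ+PD-1 value was above every IgG2a value for 1.43% of all genes. In the other treated groups 0 of the 10 lay wholly above IgG2a, against 1.1% of all genes in BRQ+IgG2a and 0.306% in PD-1 tumours. The BRQ+IgG2a group spanned the whole range, from below the lowest IgG2a tumour to above every other tumour. Ciita rose 3.17-fold in BRQ+PD-1 tumours (log2 1.66 ± 0.40, edgeR adjusted p 0.0245) and 3.66-fold in BRQ+IgG2a tumours (1.87 ± 0.40, adjusted p 0.0108). In PD-1 tumours it stood 2.46-fold higher than in IgG2a with an adjusted p of 0.421.

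Tumours of a group differed widely, and the genes differed together. The 10 genes took 0.179 to 0.583% of the counts in BRQ+PD-1 libraries, 0.0834 to 0.879% in BRQ+IgG2a, 0.164 to 0.358% in PD-1 and 0.0635 to 0.230% in IgG2a libraries. BRQ+IgG2a replicate 5 was the lowest of its group for all 10 genes, and BRQ+IgG2a replicate 6 the highest for 9 of them. BRQ+PD-1 replicate 4 and PD-1 replicate 6 were each the highest of their group for all 10, and IgG2a replicate 2 for 9. After each group's mean was subtracted, log2 CPM over the 24 tumours had a Pearson r of 0.99 to 1.0 among H2-Aa, H2-Ab1, H2-Eb1 and Cd74, and of 0.92 to 0.94 between these and Ciita. With H2-Ab1, r was 0.98 for H2-DMa, 0.96 for H2-DMb1, 0.80 for H2-DMb2, 0.82 for H2-Ob and 0.68 for H2-Oa. The points share a library, and counting error is larger for the last 3 genes. These values describe how the genes vary within groups and carry no test.

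Within groups, the genes did not scale one to one. The slope of log2 CPM on that of H2-Ab1 after subtracting group means was 0.97 for H2-Aa, 1.03 for H2-Eb1, 0.88 for Cd74, 0.86 for Ciita, 0.81 for H2-DMa and 0.66 for H2-DMb1. With a slope other than 1, a ratio over H2-Ab1 changes with the level of H2-Ab1, which itself differed between groups. The ratio of 2 genes in the same tumour was compared between groups, for 10 ratios in 3 comparisons. It used 30 two-sided exact permutation tests of 6 against 6 tumours with Benjamini-Hochberg adjustment over the 30. These tests do not adjust for the level of H2-Ab1, so they cannot separate a shift in ratio from that change with level. The ratios were chosen after their values were seen, and many share H2-Ab1 and all share the IgG2a tumours.

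H2-DMa fell relative to H2-Ab1 in each treated group. The log2 ratio of their counts averaged -3.03 ± 0.23 in BRQ+PD-1, -2.84 ± 0.23 in BRQ+IgG2a and -2.86 ± 0.09 in PD-1 tumours, against -2.23 ± 0.24 in IgG2a tumours (SD, n = 6 each). None of the 3 treated groups overlapped IgG2a. The differences were -0.80, -0.62 and -0.63 in that order (exact permutation p 0.00216 each, the smallest this design gives, adjusted p 0.0108), and without the 4 muscle-rich libraries -0.76, -0.63 and -0.57. H2-DMb1 over H2-Ab1 was lower by the same test in BRQ+PD-1 (-0.56, adjusted exact p 0.0325) and PD-1 tumours (-0.40, adjusted 0.04), and its difference of -0.46 in BRQ+IgG2a tumours had an adjusted p of 0.0942. H2-Ob over H2-Ab1 was lower in BRQ+PD-1 (-1.10, adjusted exact p 0.0177) and BRQ+IgG2a tumours (-1.08, adjusted 0.013), and at -0.73 with an adjusted p of 0.107 in PD-1 tumours. Whether these differences exceed what the within-group slopes give at a higher H2-Ab1 was not tested.

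The chains also shifted against each other. H2-Eb1 over H2-Ab1 averaged -0.09 ± 0.03 in BRQ+PD-1 and -0.04 ± 0.06 in BRQ+IgG2a tumours, against -0.34 ± 0.06 in IgG2a tumours, with no overlap (log2 differences 0.24 and 0.29, adjusted exact permutation p 0.0108 each, n = 6 each). In PD-1 tumours the difference was 0.10 (adjusted exact p 0.0464), and without the muscle-rich libraries it was again 0.10, with an unadjusted exact p of 0.0635. H2-Aa over H2-Ab1 was higher by 0.15 in BRQ+PD-1 tumours (adjusted exact p 0.013) and by 0.22 in BRQ+IgG2a tumours (adjusted 0.0108), and differed by 0.04 in PD-1 tumours (adjusted 0.197). Cd74 over H2-Ab1 and Ciita over H2-Ab1 passed in none of the 3 comparisons, with adjusted exact p-values of 0.0649 to 0.894. H2-DMb2 over H2-DMb1 was lower in BRQ+PD-1 tumours (-0.78, adjusted exact p 0.013), and its differences of -0.58 in BRQ+IgG2a and -0.66 in PD-1 tumours had adjusted p-values of 0.0519 and 0.0649; the sequence these 2 genes share bears on this ratio.

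**Figure D4:**
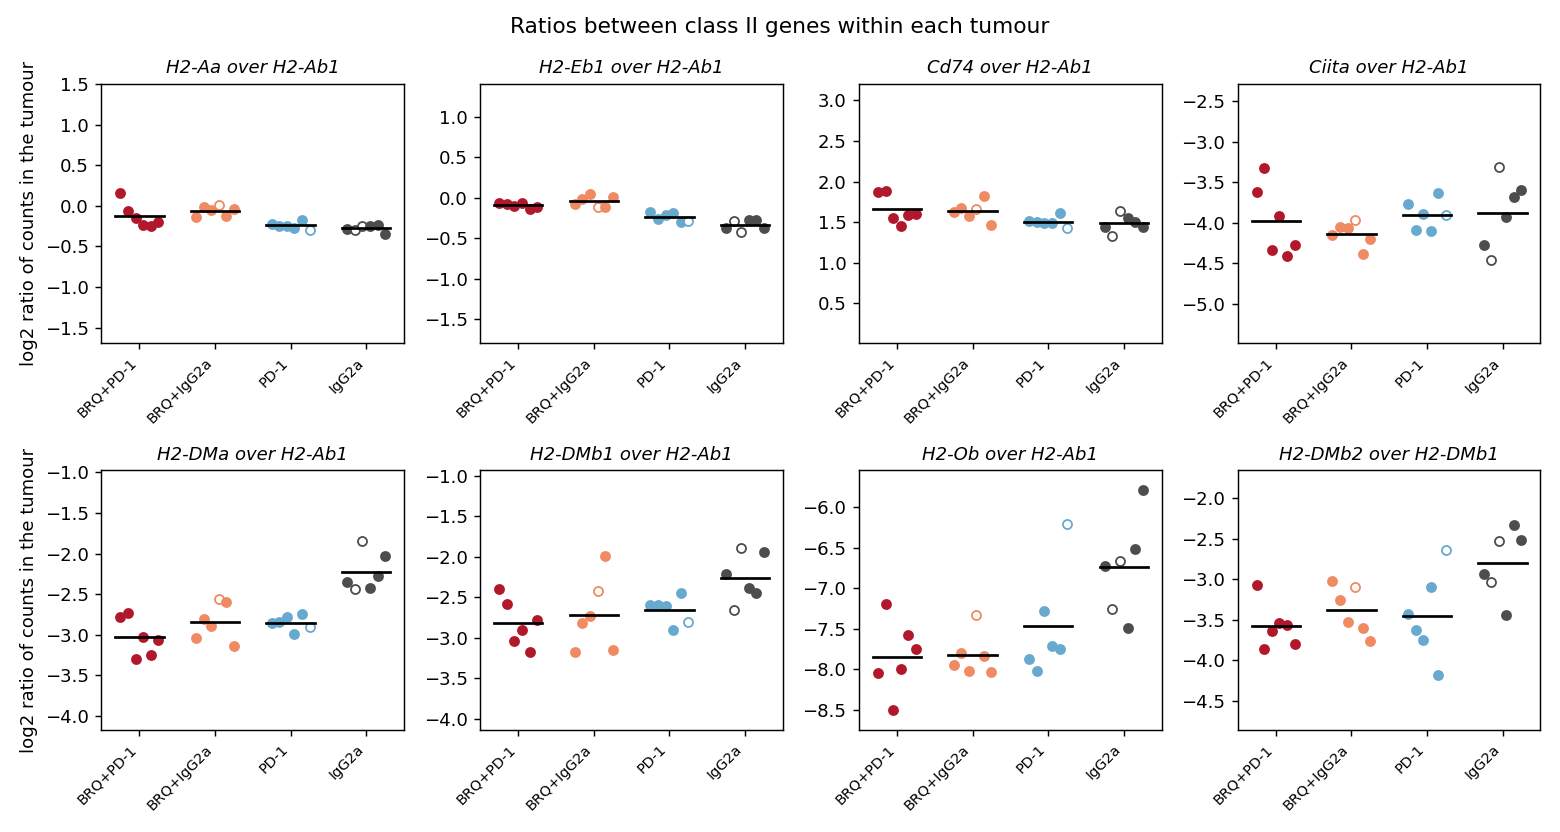
Log2 ratio of the counts of 2 genes in each tumour, by group, with the group mean as a black line and the 4 muscle-rich libraries as open circles; each panel has an axis of its own. For H2-DMa over H2-Ab1 all 18 treated tumours lie below all 6 IgG2a tumours, and for H2-Eb1 over H2-Ab1 all 12 brequinar tumours lie above them.

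Of the DNA-bound complex that recruits Ciita, none of the 7 genes (Rfx5, Rfxap, Rfxank, Nfya, Nfyb, Nfyc and Creb1) passed in any comparison with IgG2a. Their medians of log2 fold change were -0.10 in BRQ+PD-1, -0.06 in BRQ+IgG2a and 0.00 in PD-1 tumours. Of all genes, 2.48%, 2.96% and 0.0187% rose in these comparisons, and 1.43%, 0.493% and 0.0% fell. Creb1, which binds the X2 box, averaged 86.3 ± 10.5 CPM in BRQ+PD-1, 81.1 ± 7.76 in BRQ+IgG2a and 81.1 ± 7.79 in PD-1 tumours, against 79.1 ± 9.96 CPM in IgG2a tumours (SD, n = 6 each). Nfya, a subunit of NF-Y, averaged 74.9 ± 4.62, 70.9 ± 7.81 and 88.1 ± 8.18 CPM in the same order, against 81.2 ± 8.87 CPM. Averaged over both antibodies, 2 of the 7 fell in brequinar tumours, where 5.57% of all genes fell. They were Nfya, by 0.20 ± 0.06 (log2, edgeR adjusted p 0.039), and Rfxap, an RFX subunit, by 0.31 ± 0.09 (adjusted p 0.0241).

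Of the interferon gamma signal that can induce Ciita, Ifng itself was at medians of 0.938 CPM in BRQ+PD-1, 1.34 in BRQ+IgG2a and 0.705 in PD-1 tumours, against 0.266 CPM in IgG2a tumours, and did not pass in these comparisons. Averaged over both antibodies, the receptor gene Ifngr1 was higher in brequinar tumours than in tumours without it, by 0.18 ± 0.06 on the log2 scale (edgeR adjusted p 0.0428).

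Of 8 endosomal protease and peptide preparation genes, 1 rose in BRQ+PD-1 and 2 in BRQ+IgG2a tumours, and 0 passed in PD-1 tumours. Of all genes, 2.48%, 2.96% and 0.0187% rose in these 3 comparisons with IgG2a. Sppl2a, which clears the Cd74 remnant from the membrane, rose by 0.31 in both. Ctss, the cathepsin that trims the invariant chain, rose by 0.95 in BRQ+IgG2a tumours, at a median of 524 CPM against 244 CPM in IgG2a tumours. Of 3 genes of class II turnover at the surface, 2 rose in both brequinar groups and 0 passed in PD-1 tumours, against the same shares of all genes. Marchf1, a ubiquitin ligase that removes class II from the surface, rose by 1.09 in BRQ+PD-1 and 0.96 in BRQ+IgG2a tumours, and Cd83, which opposes it, by 1.17 and 1.47. Both an agent of removal and its opponent thus had more RNA.

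On the side of the contact with T cells, Cd86, a costimulatory ligand, rose by 0.73 in BRQ+PD-1 and 0.78 in BRQ+IgG2a tumours, and Cd40 by 1.16 in BRQ+IgG2a tumours, so that 1 and 2 of 3 costimulatory genes passed. Cd4, the coreceptor for class II, averaged 7.98 ± 3.65 CPM in BRQ+PD-1 and 12 ± 3.80 CPM in BRQ+IgG2a tumours, against 2.85 ± 1.09 CPM in IgG2a tumours, and rose by 1.49 and 2.05 on the log2 scale. Lag3, an inhibitory receptor that binds class II, rose by 1.68 in BRQ+IgG2a tumours. In PD-1 tumours 0 of 3 and 0 of 2 passed. Of all genes, 2.48% rose in BRQ+PD-1, 2.96% in BRQ+IgG2a and 0.0187% in PD-1 against IgG2a tumours.

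Of the markers of cells that present or see class II, Ptprc and some dendritic and T cell markers rose in the brequinar groups, and most of the others did not pass. Against IgG2a, 2.48% of all genes rose in BRQ+PD-1 and 2.96% in BRQ+IgG2a tumours. In bulk tumour RNA, a change in the number of cells of a type and a change in RNA per cell cannot be told apart. Ptprc (CD45, all leukocytes) was at 89.5, 134 and 164 CPM (lowest, median and highest) in BRQ+PD-1, 67.9, 131 and 169 CPM in BRQ+IgG2a and 70.1, 87.3 and 134 CPM in PD-1 tumours, against 53.1, 61.0 and 78.9 CPM in IgG2a tumours. It rose by 1.02 ± 0.18 in BRQ+PD-1 (edgeR adjusted p 0.00335) and by 1.01 ± 0.18 in BRQ+IgG2a tumours (adjusted p 0.00265). Of 11 dendritic cell markers, 3 rose in both brequinar comparisons (Xcr1, Zbtb46 and Itgax); their summed level ran from 402 to 601 CPM in BRQ+PD-1, 425 to 597 in BRQ+IgG2a and 434 to 575 in PD-1 tumours, against 447 to 529 CPM in IgG2a tumours, a sum to which Fscn1 alone gave a mean of 420 CPM. Of 9 macrophage markers, 0 passed in BRQ+PD-1 and 1 (Adgre1) rose in BRQ+IgG2a tumours; their sum ran from 1568 to 2632 CPM in BRQ+PD-1, 976 to 3184 in BRQ+IgG2a and 1455 to 2198 in PD-1 tumours, against 1168 to 2245 CPM in IgG2a tumours.

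Of 6 T cell markers, 1 (Cd4) rose in BRQ+PD-1 and 5 in BRQ+IgG2a tumours, with sums of 14.5 to 76.1, 17.7 to 129 and, in PD-1 tumours, 17.0 to 50.7 CPM, against 9.64 to 36.6 CPM in IgG2a tumours. Of 8 B cell markers, 4 were expressed enough to be tested and 0 passed; their sum ran from 3.69 to 15.2 CPM in BRQ+PD-1, 6.07 to 20.3 in BRQ+IgG2a and 5.28 to 67.1 in PD-1 tumours, against 4.65 to 9.56 CPM in IgG2a tumours. In PD-1 tumours no marker of these 4 cell types passed, in a comparison where 0.0187% of all genes rose. The sum of the 7 melanocytic markers ran from 16.6 to 48.3 CPM in BRQ+PD-1, 12.5 to 38.6 in BRQ+IgG2a and 12.1 to 17.9 in PD-1 tumours, against 13.1 to 17.5 CPM in IgG2a tumours. It was highest in BRQ+PD-1 replicate 1 and BRQ+IgG2a replicate 5, the tumours lowest in their groups for 8 and 10 of the class II genes. Mitf, the main part of that sum, rose in BRQ+PD-1 against PD-1 tumours (0.97 ± 0.28, edgeR adjusted p 0.0474) and over both antibodies (0.66 ± 0.20, adjusted p 0.0307). Over both antibodies, 2 of the 9 macrophage markers rose and 1 fell, with a median log2 fold change of 0.26. The marker that fell was Mertk, by 0.28 ± 0.08 (edgeR adjusted p 0.0158). In the same comparison 3 of 11 dendritic cell markers, 5 of 6 T cell markers and Ptprc rose, and 0 B cell markers passed. Of all genes, 6.91% rose and 5.57% fell there. The part of these cell types in the class II values was not tested.

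Set over Ptprc, H2-Ab1 and Ciita had a higher mean ratio in each treated group than in IgG2a tumours, and 1 of the 6 differences passed. H2-Ab1 over Ptprc differed from IgG2a by 0.72 in BRQ+PD-1, 0.85 in BRQ+IgG2a and 0.76 in PD-1 tumours on the log2 scale, with adjusted exact permutation p-values of 0.149, 0.103 and 0.0573 (n = 6 each). Ciita over Ptprc differed by 0.61, 0.59 and 0.73, with adjusted exact p-values of 0.0573, 0.197 and 0.013. The difference that passed was that of Ciita in PD-1 tumours.

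**Figure D5:**
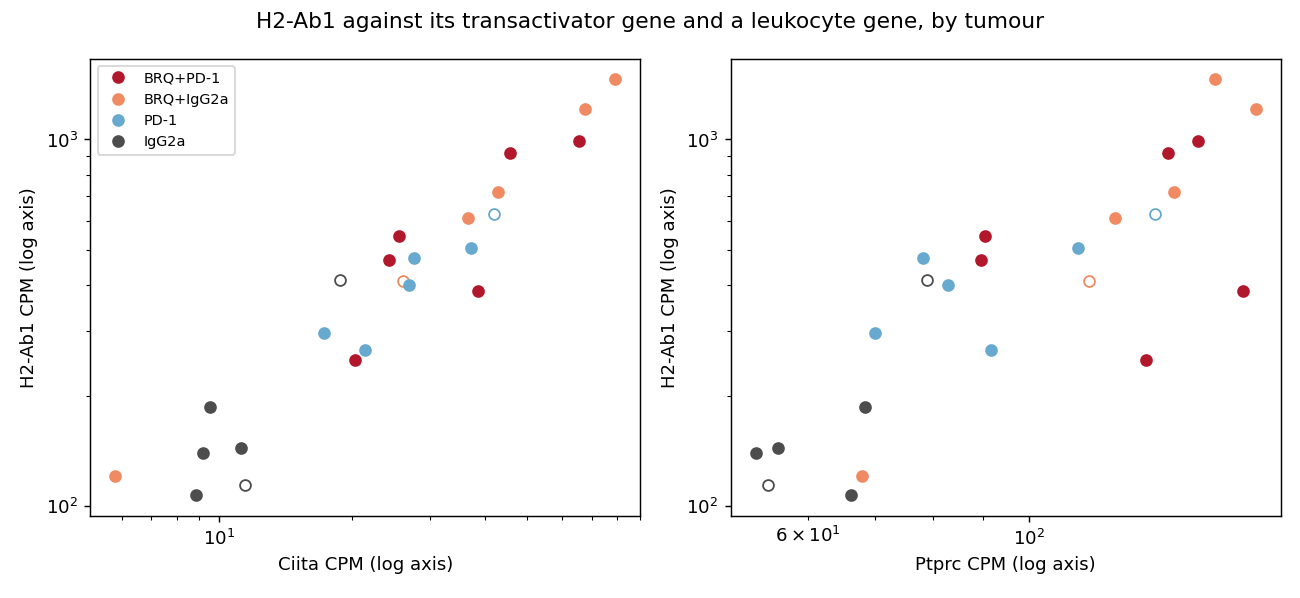
H2-Ab1 CPM against Ciita CPM (left) and against Ptprc CPM (right) in each of the 24 tumours, on log axes, coloured by group, with the 4 muscle-rich libraries open. The tumour with the lowest Ciita, a BRQ+IgG2a tumour at 5.80 CPM, has 121 CPM of H2-Ab1, and BRQ+PD-1 tumours with 131 and 164 CPM of Ptprc have 250 and 387 CPM of H2-Ab1.

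The genes whose within-group pattern was most like that of H2-Ab1, among 12542 genes that averaged 1 CPM or more, members left out, were Nkg7 (Pearson r 0.939), Lck (0.930), Ctsw (0.928), Ctss (0.922) and Cd3g (0.919), over 24 tumours with group means subtracted. Nkg7 and Ctsw are genes of cytotoxic lymphocytes, Lck and Cd3g of T cell receptor signalling. For Ciita they were Rasal3 (0.957), Gm2a (0.956), Ppfia4 (0.951), Arhgap15 (0.947) and Tagap (0.941). Among the markers, r with H2-Ab1 was 0.830 to 0.919 for the 6 T cell markers and 0.624 for Ptprc. The 9 macrophage markers ran from -0.394 for Mertk to 0.876, with the complement genes C1qa, C1qb and C1qc at 0.867 to 0.876. The next of them, Csf1r, was at 0.594. The 11 dendritic cell markers ran from 0.197 for Itgax to 0.792 for Batf3. The 4 B cell markers tested ran from 0.187 for Pax5 to 0.769 for Cd79b. Of the melanocytic markers, Mitf had an r of -0.773 and Pmel of 0.317. The points share library and depth, and the values are a description with no test.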

How the data were processed

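RNA from 24 tumours, 6 in each of 4 groups, was sequenced. Novogene made the libraries from RNeasy-purified RNA, per the labels' protocols. Per the submitters' processing notes, tools included HISAT2 2.2.1, StringTie 2.2.1 and Trim Galore 0.6.7 with build GRCm39; no source used here names the counting program, annotation or strand setting. The deposited counts are whole numbers per Ensembl gene, not normalized, and the deposited FPKM and TPM tables were not used. Groups were taken from the treatment labels. The titles call the tumours biological replicates without naming the mice, so p-values measure the spread between these tumours.

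Symbols were matched by Ensembl ID to GENCODE M21, an older build used for names and transcript lengths only (52081 of 55414 genes had a symbol). CPM is counts scaled to the library total. The 16029 genes passing filterByExpr were tested with edgeR 4.0.16 in R 4.3.3 (TMM, robust quasi-likelihood F test, all 24 libraries, group as the only term, 20 residual degrees of freedom), with Benjamini-Hochberg adjustment over all genes tested; genes were called at an adjusted p under 0.05. The SE was taken as the log2 fold change over the root of its F statistic. Likeness was computed on log2 CPM (prior count 2) of genes averaging 1 CPM or more, predicted genes left out of those named, and ratios used counts plus 0.5. All 10 members were named; of each pathway list, the called genes or, with none called, the 2 most abundant were named, and Ifng was named after its values were seen. Part of the interferon gamma list is not reported here. DESeq2 1.42.0, limma 3.58.1 voom with quality weights, other scaling and filters, a replicate block, and libraries left out were tried as alternatives; the test scripts were tested on simulated data. The members and gene lists were chosen with earlier results of these data known. Replicates differed by 9.89 to 231 times counting error over 60 pairs.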

Additional observations from a re-analysis of the deposited data

Results flagged for a closer look

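In groups of 6 tumours, 40 gene-by-group sets of CPM values were examined for a single value far from the rest. The rule was a wide gap to the nearest value relative to the whole range, by Dixon's 95% criterion. For normally distributed values, chance gives such a value in about 1 in 20 sets. The CPM values were not log-transformed, so that rate may not hold here. IgG2a replicate 2 stood above the other IgG2a tumours for 7 genes: H2-Aa at 337 CPM (next 152), H2-Ab1 at 414 (next 186), H2-Eb1 at 339 (next 143), Cd74 at 1039 (next 503), H2-DMa at 76.5 (next 36.2), H2-DMb1 at 65.8 (next 39.9) and Ciita at 18.8 CPM (next 11.4). The genes vary together, so these 7 are not independent of each other, and this library is 1 of the 4 rich in muscle RNA. Without it, edgeR called 6 members in BRQ+PD-1, 7 in BRQ+IgG2a and 0 in PD-1 against IgG2a, as with it. PD-1 replicate 6, also rich in muscle RNA, had the highest H2-Ob of its group at 8.51 CPM (next 2.57). BRQ+IgG2a replicate 5 had the lowest H2-Oa at 0.278 CPM (next 1.43), a value that rests on 6 counts.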

How the results depend on the processing

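The number of members called in BRQ+PD-1 against IgG2a tumours was 6 in the reported fit and 1 with no expression filter, 1 with the replicate block and 1 to 6 when a library was left out. It was 5 to 7 under the other settings. Over all genes, 398 of 16029 were higher in the reported fit, 202 of 32949 with no filter and 216 of 16029 with the block. In BRQ+IgG2a against IgG2a tumours it was 7 in the reported fit, 1 with only the groups compared, 5 with the replicate block and 5 to 7 when a library was left out. H2-DMb2, H2-Oa and H2-Ob, not called there in the reported fit, each passed under an alternative setting. Over all 16029 genes, 475 were higher there in the reported fit, 1347 by limma voom and 700 by DESeq2. limma voom called 1 member in PD-1 against IgG2a tumours and 5 in the interaction, where edgeR called 0. Of all 16029 genes it called 8 higher and 1 lower in the first, and 144 above 0 and 128 below 0 in the second. The cause was not tested, except that fewer libraries enter the fits of only the groups compared. Replicate numbers did not pair the tumours: the deviations of 36 same-numbered pairs had r from -0.64 to 0.44, 15 of them over 0.1, and 1 of 24 libraries correlated best with its own number. Without the 4 muscle-rich libraries the counts were 6, 7 and 0 in the 3 comparisons with IgG2a.

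Direction turned for estimates near 0. H2-DMb2 in BRQ+PD-1 against PD-1 (-0.01) was 0.23 by limma voom, 0.12 with the replicate block, 0.33 without the muscle-rich libraries and -0.20 to 0.34 when a library was left out. H2-Ob there (-0.24) was 0.31, 0.07, 0.42 and -0.40 to 0.43 in the same order. Ciita in BRQ+PD-1 against BRQ+IgG2a was -0.44 to 0.05 when a library was left out. Ratio differences, whose alternatives were chosen after seeing the data, ran from -0.01 to 0.05 for Cd74 over H2-Ab1 and -0.14 to 0.09 for Ciita over H2-Ab1 in PD-1 tumours, and from -0.24 to 0.01 for Ciita over H2-Ab1 in BRQ+PD-1 tumours. Of the other log2 fold changes, 500 kept direction and side of the threshold with all libraries or without the muscle-rich ones, 22 lost and 12 gained a call; leaving out 1 library, 1012 kept both and 59 lost a call. H2-Oa and H2-Ob rest on few counts.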
